A study of Homo sapiens with 5 samples.

Results

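The genes described here encode enzymes and regulators of cholesterol, isoprenoid and fatty acid synthesis. A list of 29 genes was used, and a gene was included when the array had a probe set whose only platform symbol was that gene. This held for 26 of the 29, out of 11963 genes on the array with such a probe set. CYP51A1 and FADS1 share their probe sets with another symbol, and with FDFT1 they were not analysed here. Where a gene had several probe sets, the one with the highest mean log2 signal over the arrays stood for it, as was needed for 16 of the 26. The genes were sorted into 7 of the mevalonate branch, 9 of the sterol branch, 2 of the isoprenoid branch (GGPS1 and PDSS1), 3 regulators and 5 of fatty acid synthesis.

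The cells were TF-1, an established human erythroleukaemia line that needs a growth factor and is kept in GM-CSF. Per the labels they carried a murine stem cell virus vector, either MSCV-DbSCL, which expresses a DNA binding-defective form of the haematopoietic transcription factor SCL, or the GFP-marked empty vector MSCV-GFP. All had spent a night without growth factor before 6 h of stimulation. The groups were DbSCL cells under Steel factor (20 ng/mL, the ligand of the c-Kit receptor), DbSCL cells under Epo (erythropoietin, dose not given in the labels), vector cells under Steel factor, vector cells under Epo and vector cells under GM-CSF (5 ng/mL). Each group had 1 array, so no difference has a replicate check, and no p-value was computed. Whether the transduced cells were clones, pools or sorted is not given in the sources used here. Of 8 progenitor markers on the array (GATA1, KLF1, EPOR, KIT, TAL1, GFI1B, LYL1 and CD34), 7 were above the floor on all 5 arrays and GFI1B was below it on all. Of 4 adipocyte markers, ADIPOQ, FABP4 and LEP were below the floor on all arrays and PLIN1 was above it on all, at 5.42. Of 4 hepatocyte markers, ALB and APOA1 were below it on all arrays, SERPINA1 was above it on 1 and TTR on all 5, at 5.84 to 6.01. Of 3 lymphocyte markers, CD3E (5.66 to 5.97) and CD79A (5.58 to 6.26) were above it on all 5 and MS4A1 on 1. TAL1, which encodes SCL, had signals of 8.29 and 8.31 in DbSCL cells under Steel factor and Epo, against 8.31, 8.59 and 7.57 in vector cells under Steel factor, Epo and GM-CSF. DbSCL minus vector was −0.02 under Steel factor and −0.29 under Epo in this brightest TAL1 probe set, but 0.06 and 0.19 in the second-brightest, so the probe sets did not share a direction. Whether either reads the construct is not given in the sources used here.

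Cholesterol is made from acetyl-CoA through mevalonate, which is turned into isoprenoid units and joined into farnesyl diphosphate. From there the sterol branch leads through squalene and lanosterol to cholesterol, while GGPS1 and PDSS1 lengthen the chain for protein prenylation and for the tail of coenzyme Q. Cells short of sterol release the SREBP factors, encoded by SREBF1 and SREBF2, from the endoplasmic reticulum, and these raise transcription of most of the pathway together with the CCAAT-binding factor NF-Y. INSIG1 holds the SREBP complex back when sterol is plentiful, and SREBP also acts on the fatty acid genes. Dividing progenitors use these pathways to build membrane.

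Values are log2 signals of probe sets as deposited. They compare 1 gene between arrays and not 2 genes with each other. Signals under a floor of 4.45, the 40th percentile of all values, were raised to the floor. A gene was compared if either array of the pair exceeded it. Of the 26 genes, 25 were above the floor on every array, and SC5D was above it only in vector cells under Epo. Some markers of other cell types were also above the floor, up to 6.26 for CD79A, so passing it is no proof of expression. MVD (4.96 to 5.62), MSMO1 (4.91 to 6.12), TM7SF2 (5.53 to 5.94), HSD17B7 (5.98 to 6.03) and SC5D had signals below that marker value on every array. HMGCS1 on the DbSCL Steel factor array (6.24) and PMVK on the vector Epo array (6.24) were also below it. A difference is counted here when it reaches 1.5-fold (0.58 on the log2 scale), and 2-fold is given separately. A pair of yardsticks stands in for replicate error. The spread of a single difference, estimated over all genes from the DbSCL difference under Steel factor minus that under Epo, was 0.13 to 0.24 log2 depending on signal, which includes any real interaction. Where a gene had 2 bright probe sets, their differences disagreed by a median of 0.14 to 0.25 log2, and by more than 0.40 to 0.76 log2 in the top 10% of genes, so a 1.5-fold difference seen in 1 probe set lies within disagreements that occur. Of the arrays, vector Epo had the lowest hybridization controls (9.85, against 10.04 to 10.82 on the others) and the lowest 28S ribosomal signal (5.80, against 6.55 to 7.82). For beta-actin, the 3' signal minus the 5' signal was highest in DbSCL cells under Steel factor (3.33) and lowest in vector cells under Steel factor (1.89). Of all non-control probe sets, 58.6% held exactly the same value on at least 2 arrays, which is why some differences below are 0.00. RNA came from whole cultures, so a change in each cell and a change in the share of cells that express a gene cannot be told apart.

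**Figure D1:**
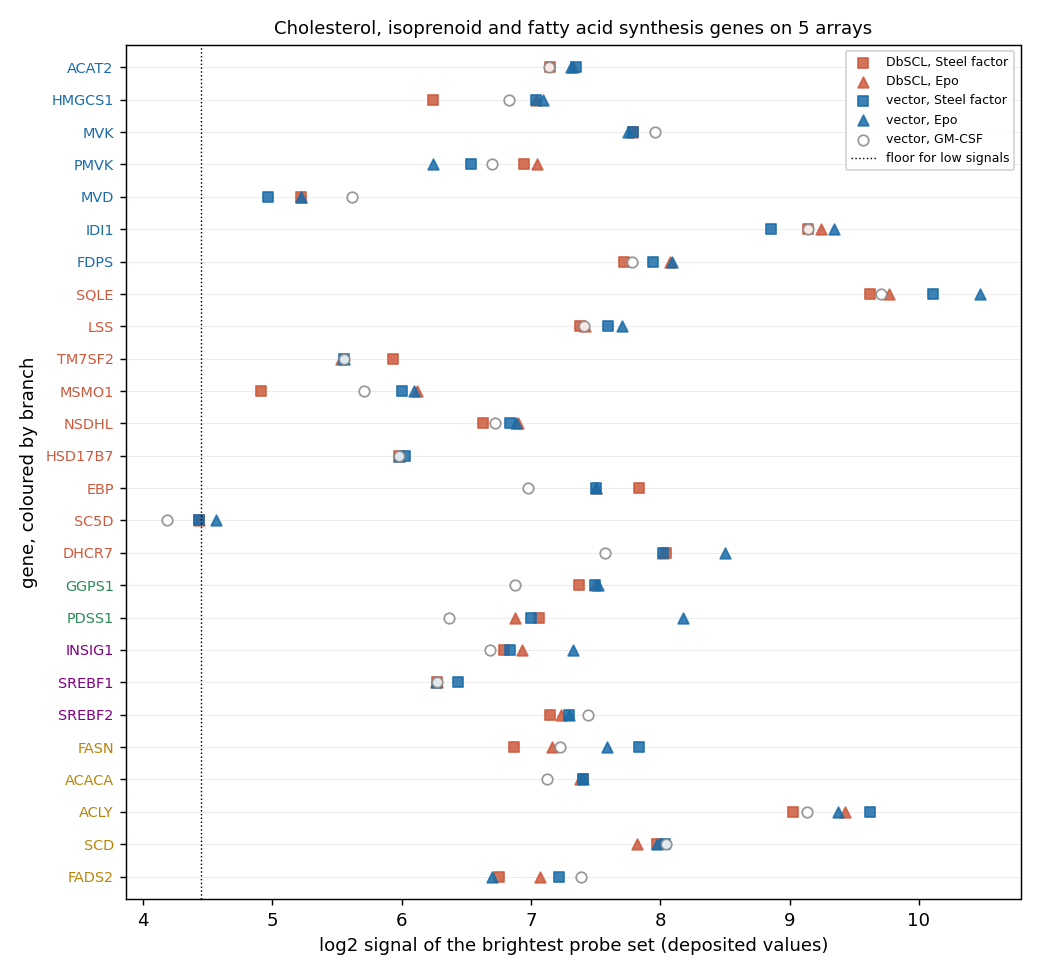
Log2 signal of the brightest probe set of each of the 26 genes (x axis) on the 5 arrays, with genes coloured by branch and the floor of 4.45 dotted. Symbols at the same value overlap. PDSS1 in vector cells under Epo (8.17) and MSMO1 in DbSCL cells under Steel factor (4.91) stand apart from the other arrays.

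The 26 genes differed in how far they moved over the arrays. PDSS1 had the widest range, 1.81 log2, followed by MSMO1 with 1.21, FASN with 0.96 and DHCR7 with 0.92, while HSD17B7 (0.05), SC5D (0.12 after the floor) and SREBF1 (0.17) hardly moved. DbSCL under Steel factor held the lowest signal of 9 of the 26, against 17.2% of all 8693 genes above the floor on any array. These 9 were HMGCS1, FDPS, SQLE, LSS, MSMO1, NSDHL, SREBF2, FASN and ACLY. The vector Epo array held the highest signal of 10, against 25.8% of all genes, namely HMGCS1, IDI1, FDPS, SQLE, LSS, SC5D, DHCR7, GGPS1, PDSS1 and INSIG1. Gaps to the next array were often small, at 0.01 log2 for FDPS and 0.05 for HMGCS1 on the vector Epo array. On the DbSCL Steel factor array they were 0.80 for MSMO1, 0.59 for HMGCS1 and 0.29 for FASN. The rest of the 9 were lowest by only 0.03 (LSS) to 0.11 (ACLY), less than the spread of a single difference.

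The first comparison asked what DbSCL does under Steel factor. Relative to vector cells, 4 of 25 compared genes (16%) were at least 1.5-fold lower in DbSCL cells, where 3.68% of all 8450 compared genes were. None was at least 1.5-fold higher, where 1.42% of all genes were. The lower genes were MSMO1, FASN, HMGCS1 and ACLY, 1 from the sterol branch, 1 from the mevalonate branch and 2 from fatty acid synthesis. MSMO1 alone reached 2-fold, as 0.343% of all genes did. The median of the 25 was −0.12, with 16 below 0 and 8 above. For all 8450 compared genes it was 0.00, with 3513 below 0 and 3940 above. DbSCL minus vector was 0.53 for the hybridization controls, 0.53 for 28S and 1.44 for the beta-actin 3' to 5' contrast, and their part in these differences was not tested. KIT, which encodes the Steel factor receptor, also had a lower signal in DbSCL cells, with differences of −0.70 under Steel factor and −0.40 under Epo, and its part was likewise not tested. The count depends on the probe set: with the mean of probe sets 1 of 25 genes was lower, beside 2.42% of all genes, and with the second-brightest probe set 1 of 14, beside 4.22%.

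MSMO1, the oxidase that starts removal of the C4 methyl groups of sterols, had signals of 4.91 and 6.12 in DbSCL cells under Steel factor and Epo, against 6.00, 6.10 and 5.71 in vector cells under Steel factor, Epo and GM-CSF. The DbSCL Steel factor array lay 0.80 log2 below the next lowest. Its difference under Steel factor was −1.09 (2.13-fold lower), the 20th lowest of all compared genes, from the only MSMO1 probe set. HMGCS1, the cytosolic HMG-CoA synthase that makes the precursor of mevalonate, gave 6.24 and 7.04 in DbSCL cells under Steel factor and Epo, against 7.04, 7.10 and 6.83 in vector cells under Steel factor, Epo and GM-CSF. It too was low on that array alone, 0.59 log2 below the next, and its difference was −0.80 (1.74-fold lower). The other HMGCS1 probe set was below the floor on all 5 arrays.

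FASN, the fatty acid synthase, had 6.87 and 7.16 in DbSCL cells under Steel factor and Epo, against 7.83, 7.59 and 7.22 in vector cells under Steel factor, Epo and GM-CSF. Both DbSCL arrays were thus below all 3 vector arrays. The difference under Steel factor was −0.96 (1.95-fold lower), while the weaker FASN probe set, above the floor only on the DbSCL Steel factor array, gave 0.29 in the other direction. ACLY, the ATP citrate lyase that supplies cytosolic acetyl-CoA, was 9.02 and 9.43 in DbSCL cells under Steel factor and Epo, against 9.62, 9.37 and 9.14 in vector cells under Steel factor, Epo and GM-CSF. Its difference under Steel factor was −0.60 (1.51-fold lower), just past 1.5-fold, and its 2 other probe sets gave −0.41 and 0.46, so the ACLY probe sets did not share a direction.

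Short of 1.5-fold under Steel factor, the squalene epoxidase gene SQLE gave −0.49 and FADS2, a desaturase of polyunsaturated fatty acids, −0.46. FDPS, which makes farnesyl diphosphate, gave −0.23, the lanosterol synthase gene LSS −0.22, and NSDHL, which acts after MSMO1 in removing the C4 methyl groups, −0.21, though its other probe set gave 0.38. The acetoacetyl-CoA thiolase gene ACAT2 gave −0.20, and the acetyl-CoA carboxylase gene ACACA gave 0.00. On the other side lay PMVK, the phosphomevalonate kinase, with 0.41, TM7SF2, a sterol C14 reductase, with 0.38, EBP, the sterol isomerase, with 0.34 (0.06 and 0.80 in its other probe sets), IDI1, the isopentenyl diphosphate isomerase, with 0.28, and MVD, the mevalonate diphosphate decarboxylase, with 0.26. The mevalonate kinase gene MVK (0.00), the final reductase gene DHCR7 (0.02) and HSD17B7 (−0.05) stayed within 0.05 of 0. The other MVK probe sets gave 0.00 and 0.33, and that of DHCR7 gave −0.05. The branch medians were −0.46 for the 5 fatty acid genes, −0.13 for 8 sterol genes, −0.14 for the 3 regulators and 0.00 for the 7 mevalonate genes. Among regulators, INSIG1 gave −0.05, but its other 2 probe sets gave −1.08 and −0.39, so INSIG1 is uncertain. The stearoyl-CoA desaturase gene SCD gave −0.06, and its 3 other probe sets gave −0.29 to −0.37.

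**Figure D2:**
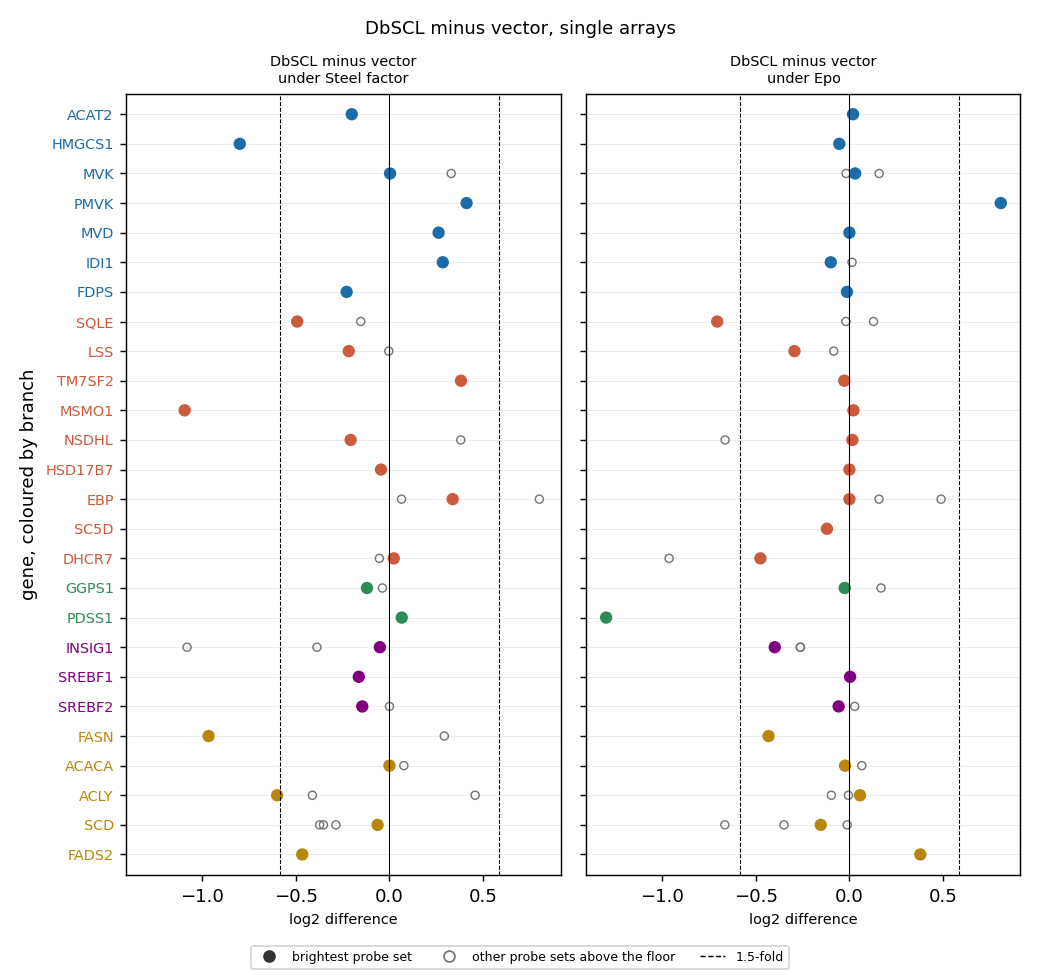
Log2 difference between DbSCL and vector arrays (x axis) under Steel factor (left) and Epo (right) for each gene, with the brightest probe set filled and coloured by branch and other probe sets above the floor as open circles. Among the filled points MSMO1, FASN, HMGCS1 and ACLY lie left of the 1.5-fold line under Steel factor. Under Epo the filled points of PDSS1 and SQLE do and that of PMVK lies right of it.

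Under Epo the genes past 1.5-fold were PDSS1, SQLE and PMVK. Of the 26, 2 were lower in DbSCL than in vector cells (PDSS1 and SQLE), where 2.78% of all 8359 compared genes were, and 1 was higher (PMVK), where 0.694% were. PDSS1 alone reached 2-fold, as 0.275% of genes did on the lower side. The median of the 26 was −0.02, beside 0.00 for all genes. The count depends on the processing. Quantile normalization left PDSS1 and PMVK, with SQLE at −0.579, short of the limit of 0.585 log2. With the second-brightest probe set 2 of 13 genes were lower, beside 2.81% of all genes. These were DHCR7 (−0.96) and NSDHL (−0.66, against 0.02 in its brightest probe set). The 3 weaker SCD probe sets gave −0.35, −0.01 and −0.66. On the DbSCL array minus the vector array, 28S gave 0.89 and the hybridization controls 0.18, and their part was not tested.

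PDSS1 encodes a subunit of decaprenyl diphosphate synthase, which makes the side chain of coenzyme Q. It had 7.06 and 6.88 in DbSCL cells under Steel factor and Epo, against 7.00, 8.17 and 6.37 in vector cells under Steel factor, Epo and GM-CSF. The vector Epo array stood 1.11 log2 above the next highest, and the vector GM-CSF array was lowest by 0.51. The DbSCL difference was −1.30 under Epo (2.46-fold lower) and 0.07 under Steel factor, from the only PDSS1 probe set.

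SQLE, the squalene epoxidase and an early oxygen-using step of the sterol branch, had 9.62 and 9.77 in DbSCL cells under Steel factor and Epo, against 10.11, 10.47 and 9.70 in vector cells under Steel factor, Epo and GM-CSF. Its DbSCL difference was −0.70 under Epo and −0.49 under Steel factor, the same sign under both cytokines, but the second-brightest SQLE probe set gave 0.13 and −0.15. PMVK had 6.94 and 7.05 in DbSCL cells under Steel factor and Epo, against 6.53, 6.24 and 6.70 in vector cells under Steel factor, Epo and GM-CSF, so both DbSCL arrays were above all 3 vector arrays. Its difference was 0.81 under Epo (1.75-fold higher) and 0.41 under Steel factor, and it has 1 probe set. DHCR7 gave −0.47 under Epo, and −0.96 in its other probe set. FASN (−0.43), INSIG1 (−0.40, with −0.26 in both others) and LSS (−0.29) were also below 0 without reaching 1.5-fold, and FADS2 gave 0.38. MSMO1 (0.02) and HMGCS1 (−0.05), both low in DbSCL cells under Steel factor, were level with the vector array under Epo.

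The DbSCL differences under Steel factor and under Epo rest on 4 separate arrays. Of 25 genes compared in both, 11 (44%) had the same sign, beside 48.6% of all 8272 genes compared in both, where a difference of exactly 0 counted as no shared sign. The correlation between the differences was 0.12 over the 25 genes and 0.32 over all, as a description. No gene of the 25 was past 1.5-fold under both cytokines. Few of all compared genes passed it in either comparison. Under Steel factor 3.68% were lower and 1.42% higher, and under Epo 2.78% and 0.694%. The share of all genes past it under both was not computed, so the lack of overlap is no result about the 25. The difference under Steel factor minus that under Epo was −1.11 for MSMO1, −0.74 for HMGCS1 and 1.36 for PDSS1, with no test possible.

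Promoters of the genes at the extremes are shown because members of this pathway share CCAAT boxes, bound by NF-Y, and sterol elements, bound by SREBP. The 250 bases before the annotated start were taken from RefSeq (GRCh38.p14) for 23 of the 26 genes, using the start farthest upstream where there were several. ACAT2, SQLE and FASN had no entry. On both strands the search looked for CCAAT, for CACCCCAC (a core of the sterol element), and for CANNTG, the E-box to which SCL binds with its partner proteins. It also covered the GATA site AGATAA and the GC box, whose letters are GGGCGG. Capitals in the sequences mark CCAAT and CACCCCAC matches, read on the strand shown or its complement. MSMO1 and PDSS1 are the genes past 2-fold, while HMGCS1 and SREBF2 were chosen after their values and matches were seen.
MSMO1 (chr4:165327419-165327668, plus strand): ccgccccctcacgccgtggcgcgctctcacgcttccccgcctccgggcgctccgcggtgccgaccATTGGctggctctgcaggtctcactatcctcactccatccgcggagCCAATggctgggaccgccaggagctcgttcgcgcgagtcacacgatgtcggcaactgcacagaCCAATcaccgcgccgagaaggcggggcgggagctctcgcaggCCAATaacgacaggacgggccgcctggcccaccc
HMGCS1 (chr5:43313413-43313662, minus strand): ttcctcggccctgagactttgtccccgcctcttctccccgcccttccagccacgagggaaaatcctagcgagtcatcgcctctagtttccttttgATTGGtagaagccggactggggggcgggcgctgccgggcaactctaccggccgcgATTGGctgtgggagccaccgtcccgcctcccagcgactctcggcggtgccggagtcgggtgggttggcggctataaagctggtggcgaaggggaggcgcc
PDSS1 (chr10:26697451-26697700, plus strand): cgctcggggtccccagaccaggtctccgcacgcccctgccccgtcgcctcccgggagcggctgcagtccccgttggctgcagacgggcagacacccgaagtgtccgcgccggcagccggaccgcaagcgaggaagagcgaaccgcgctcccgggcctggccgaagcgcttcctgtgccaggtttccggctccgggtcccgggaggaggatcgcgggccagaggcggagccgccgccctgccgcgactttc
SREBF2 (chr22:41832855-41833104, plus strand): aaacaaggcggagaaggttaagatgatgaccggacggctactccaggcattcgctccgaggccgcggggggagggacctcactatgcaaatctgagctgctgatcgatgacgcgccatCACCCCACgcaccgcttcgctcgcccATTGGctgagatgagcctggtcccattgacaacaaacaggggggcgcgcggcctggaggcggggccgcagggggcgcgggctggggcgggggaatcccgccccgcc

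MSMO1 held 4 CCAAT matches and HMGCS1 held 2, while the PDSS1 window held none. A CCAAT match was present in 15 of the 23 windows, against 33.0% of 27305 windows of the same length, and 9 held at least 2, against 10.0%. By branch this was 7 of 8 sterol genes, 4 of 6 mevalonate genes, 2 of 3 regulators, 2 of 4 fatty acid genes and 0 of 2 isoprenoid genes. CACCCCAC was found in SREBF2 alone, against 2.38% of all windows. An E-box was found in 11 of 23, against 62.2% of all windows, with 1 in MSMO1 and none in HMGCS1 or PDSS1. AGATAA was found in FDPS alone, against 9.40%, and GGGCGG in 19 of 23, against 42.2%. A match describes the letters only and is no evidence of binding.

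Epo was next compared with GM-CSF in vector cells. Under Epo 5 of 26 genes (19.2%) were at least 1.5-fold higher, where 13.2% of all 8581 compared genes were, so the share lies near the background. These were PDSS1 (1.81, or 3.50-fold, the 4th highest of all compared genes), DHCR7 (0.92), SQLE (0.77), GGPS1 (0.64) and INSIG1 (0.64). PDSS1 alone reached 2-fold, as 3.46% of all genes did. FADS2 alone was lower (−0.69), where 2.45% were. Quantile normalization left PDSS1 higher and FADS2 lower, and loess left PDSS1 and DHCR7 higher and FADS2 lower. Epo minus GM-CSF was −0.95 for the hybridization controls and −2.02 for 28S, and their part was not tested.

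DHCR7, the reductase of the last step to cholesterol, had 8.05 and 8.02 in DbSCL cells under Steel factor and Epo, against 8.02, 8.50 and 7.58 in vector cells under Steel factor, Epo and GM-CSF. The vector Epo array was highest and the vector GM-CSF array lowest, with the other 3 within 0.02 of each other. The other DHCR7 probe set gave the same order of the vector arrays and a larger difference between Epo and GM-CSF, 1.20. GGPS1, the geranylgeranyl diphosphate synthase, had 7.37 and 7.49 in DbSCL cells under Steel factor and Epo, against 7.49, 7.52 and 6.88 in vector cells under Steel factor, Epo and GM-CSF. It was therefore low on the GM-CSF array alone, while its weaker probe set gave 0.14 for Epo minus GM-CSF. INSIG1 had 6.79 and 6.93 in DbSCL cells under Steel factor and Epo, against 6.84, 7.33 and 6.69 in vector cells under Steel factor, Epo and GM-CSF. Its 2 other probe sets gave 0.47 and 0.64 for Epo minus GM-CSF, so all 3 INSIG1 probe sets lay on the same side. For SQLE, by contrast, the 2 other probe sets gave −0.27 and 0.02.

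The FADS2 signals were 6.75 and 7.07 in DbSCL cells under Steel factor and Epo, against 7.22, 6.70 and 7.39 in vector cells under Steel factor, Epo and GM-CSF. The vector GM-CSF array was highest and the vector Epo array lowest, the reverse of DHCR7. Among the mevalonate genes none passed 1.5-fold under Epo, with PMVK at −0.46, MVD at −0.39 and MVK at −0.21 on the lower side and FDPS at 0.31, HMGCS1 at 0.26, IDI1 at 0.20 and ACAT2 at 0.17 on the higher. The sterol genes had a median of 0.29, with 7 of 9 above 0 and none below. Of all 8581 compared genes, 3891 were above 0 and 4136 below. With quantile normalization LSS (−0.01), NSDHL (−0.01) and HSD17B7 (−0.02) fell just below 0. As deposited, 1 other probe set of EBP gave −0.80 and 1 of NSDHL gave 1.08. SREBF1 had 6.27 on both arrays and SREBF2 gave −0.15, so neither SREBP gene itself differed by 1.5-fold.

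Steel factor against GM-CSF shares the GM-CSF array with that comparison. Of 25 genes, 3 (12%) were at least 1.5-fold higher under Steel factor (PDSS1 0.63, GGPS1 0.62 and FASN 0.61), where 6.90% of all 8553 genes were, and MVD was lower (−0.65), where 1.29% were. All 4 were near the limit: loess normalization left none and quantile normalization left MVD alone. MVD had 5.22 in DbSCL cells under both cytokines, against 4.96, 5.22 and 5.62 in vector cells under Steel factor, Epo and GM-CSF. The vector Steel factor array was lowest and the GM-CSF array highest. Next to the limit lay EBP (0.52), ACLY (0.49), DHCR7 (0.45) and SQLE (0.41). Steel factor minus GM-CSF was −0.52 for the hybridization controls and −1.28 for 28S, and their part was not tested.

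**Figure D3:**
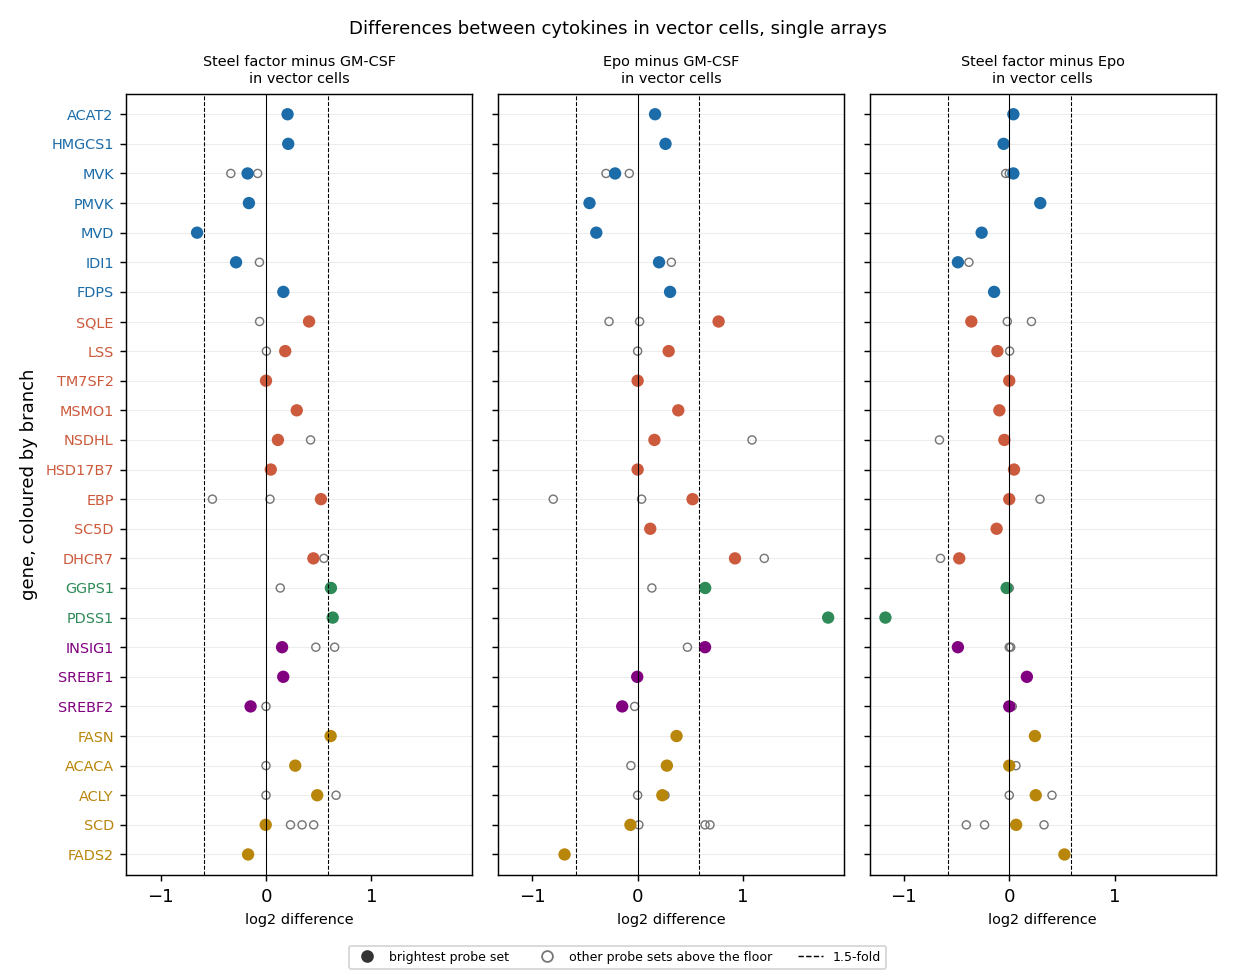
Log2 differences between cytokines in vector cells (x axis) for each gene, with the brightest probe set filled and coloured by branch and other probe sets above the floor open. The first 2 panels share the GM-CSF array, and PDSS1 stands out at 1.81 for Epo minus GM-CSF and −1.17 for Steel factor minus Epo.

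Between Steel factor and Epo in vector cells, 1 of 26 genes was lower under Steel factor at 1.5-fold, where 1.15% of all 8312 compared genes were, and none was higher, where 0.349% were. It was PDSS1, at −1.17 (2.26-fold lower), the lowest of all compared genes, and past 2-fold as 0.0241% of genes were. Each of the PDSS1 differences past 2-fold rests on the 1 vector Epo array. IDI1 (−0.49, and −0.38 in its other probe set), INSIG1 (−0.49, with 0.00 and 0.01 in the others) and DHCR7 (−0.47 and −0.65) came next on the lower side, and FADS2 (0.52) was furthest on the higher. The fatty acid genes had a median of 0.24, which was 0.06 with the mean of probe sets and 0.00 with the second-brightest, and the sterol genes had −0.09.

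In DbSCL cells MSMO1 and HMGCS1 were the genes past 1.5-fold. Under Steel factor MSMO1 (−1.21, or 2.31-fold lower) and HMGCS1 (−0.80) were lower than under Epo, 2 of 25 genes or 8%, where 2.80% of all 8472 genes were, and none was higher, where 0.909% were. With the mean of probe sets HMGCS1 gave −0.33 and MSMO1 alone was counted. MSMO1 was the 5th lowest of all compared genes, and 0.201% were past 2-fold on that side. PDSS1 gave 0.19 here. The comparison shares the DbSCL Steel factor array with the DbSCL difference under Steel factor, in which the same 2 genes were low. INSIG1 gave −0.14, and its other probe sets −0.82 and −0.11.

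**Figure D4:**
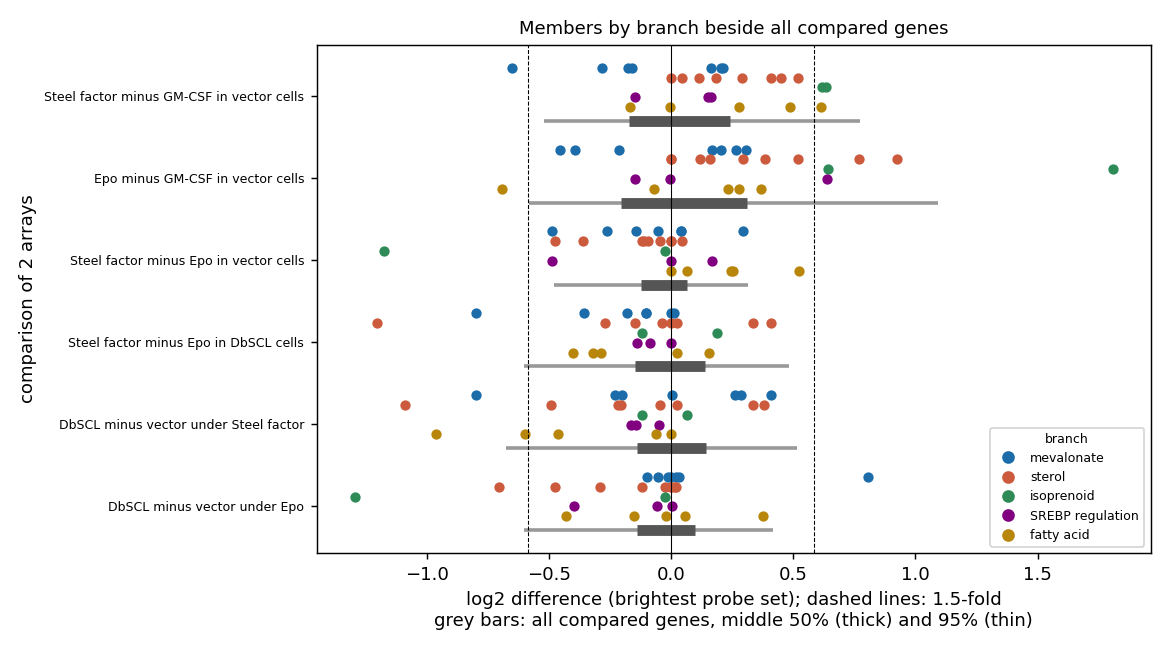
Log2 differences of the members (x axis, points coloured by branch) in the 6 comparisons, above bars for the middle 50% and 95% of all compared genes. The isoprenoid gene PDSS1 lies far outside the bars in 3 comparisons, while most other points lie within them.

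Set side by side, the branches did not share a profile. The isoprenoid genes were at least 1.5-fold above GM-CSF under both other cytokines in vector cells. PDSS1 gave 0.63 under Steel factor and 1.81 under Epo, and GGPS1 gave 0.62 and 0.64. Of all compared genes, 6.90% were that high under Steel factor and 13.2% under Epo. These comparisons share the GM-CSF array, and GGPS1 did not follow PDSS1 in the others. With quantile and loess normalization PDSS1 under Epo alone stayed past 1.5-fold. GGPS1 then gave 0.45 and 0.47 under Steel factor and 0.41 and 0.46 under Epo. As deposited, its weaker probe set gave 0.14 in both comparisons. The sterol genes had medians of 0.24 for Steel factor and 0.29 for Epo against GM-CSF, beside mevalonate medians of −0.16 and 0.17. The fatty acid genes had medians of 0.28 and 0.23 there. Normalization moved these values. For Epo minus GM-CSF the mevalonate median turned to −0.16 with quantile and −0.07 with loess normalization, and the fatty acid median to −0.11 and −0.04. The sterol median kept its sign, at 0.15 and 0.17. For Steel factor minus GM-CSF the sterol median was 0.04 and 0.07, and the fatty acid median 0.09 and 0.13. In DbSCL cells under Steel factor the fatty acid median was −0.46, and under Epo it was −0.02. That under Steel factor rests on the brightest probe sets: it was −0.25 with the mean of probe sets, 0.18 with the second-brightest and 0.00 without the probe sets whose names mark possible cross-hybridization or shared transcripts (_x_at and _s_at). Without those the mevalonate median for Steel factor minus GM-CSF turned to 0.16.

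Of 58 further genes of the pathway, listed by role with earlier results known, 45 were on the array. In the coenzyme Q list, 3 of 8 compared genes were at least 1.5-fold higher under Epo than under GM-CSF in vector cells, where 13.2% of all genes were: PDSS2 (0.93), the partner subunit of PDSS1, COQ2 (0.85), which attaches the side chain to the ring, and COQ9 (0.65). PDSS2 had 7.33 and 7.41 in DbSCL cells under Steel factor and Epo, against 7.63, 7.63 and 6.69 in vector cells under Steel factor, Epo and GM-CSF, so it was low on the GM-CSF array and did not share the PDSS1 peak on the vector Epo array. Its other probe set above the floor on the GM-CSF array gave −0.14 for Epo minus GM-CSF. Of 9 compared prenyl and dolichol transfer genes, 1 was at least 1.5-fold higher under Epo than under GM-CSF, beside the same 13.2%. It was also the only 1 of the 9 that was lower under Steel factor than under Epo in vector cells (1.15% of all genes) and lower in DbSCL than in vector cells under Epo (2.78%). This gene, RABGGTB, which encodes a subunit of the enzyme that attaches geranylgeranyl groups to Rab proteins, had 7.43 and 7.61 in DbSCL cells under Steel factor and Epo, against 7.61, 8.28 and 7.25 in vector cells under Steel factor, Epo and GM-CSF. As for PDSS1, its vector Epo signal was the highest, with 1.03 for Epo minus GM-CSF and −0.68 for both Steel factor minus Epo and DbSCL minus vector under Epo. Of 8 compared genes of sterol sensing, uptake and efflux, 1 was higher under Epo than under GM-CSF, again beside 13.2% of all genes: MYLIP, a ubiquitin ligase gene induced by sterols (0.59). MYLIP only just passed the limit, with signals of 5.06 under Epo and 4.48 under GM-CSF in vector cells, the latter close to the floor of 4.45. No gene of these 3 lists passed 1.5-fold between DbSCL and vector cells under Steel factor, where 1.42% of all genes were higher and 3.68% lower.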

How the data were processed

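Per the labels' protocols, total RNA of 5 samples was labelled with biotin and read on Affymetrix arrays. The deposited table gives 1 log2 signal per probe set and array. The log2 scale was inferred from the range, 2.08 to 13.77. The authors' summary and normalization are not given in the sources used here. Column medians lay between 4.89 and 4.98, so values were used as deposited. The standard deviations ran from 1.78 for vector GM-CSF to 1.89 for vector Epo, so close medians do not make the arrays alike.

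Of 22283 probe sets, 68 were controls and 19071 had a single symbol in the platform annotation. Named genes were the members and further pathway genes past 1.5-fold. The members and lists were chosen with earlier results of these data known. The spread of a single difference is the scaled median absolute deviation of the DbSCL difference under Steel factor minus that under Epo, with its variance halved, in 10 bins of signal. The counting was tested on simulated data. Alternatives were quantile and cyclic loess normalization (limma 3.58.1, R 4.3.3), median centring, no floor or a floor at the 50th percentile, the mean of probe sets, the second-brightest probe set, and leaving out probe sets named _x_at or _s_at. Other steps used Python 3.11.15 with pandas 2.3.3 and numpy 2.4.6. The number of arrays, 1 per group, limits the precision.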

Additional observations from a re-analysis of the deposited data

Results flagged for a closer look

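Values in opposite directions under the same contrast, each beyond the estimated spread of a single difference, were found for 3 genes. None was tested, since each difference is between 2 single arrays, and the contrasts below rest on the same 4 arrays. The share of all genes that meet this rule was not computed, so the count is no result about these genes. In vector cells the margin was small, with 0.25 against a spread of 0.24 for ACLY and 0.24 against 0.20 for FASN. FADS2 gave −0.46 for DbSCL minus vector under Steel factor and 0.38 under Epo, which as Steel factor minus Epo is −0.32 in DbSCL cells and 0.52 in vector cells. FASN gave −0.29 for Steel factor minus Epo in DbSCL cells and 0.24 in vector cells, while its other probe set, above the floor only on the DbSCL Steel factor array, gave 0.29 in DbSCL cells. ACLY gave −0.40 and 0.25 in the same order, although 1 of its other probe sets gave 0.55 and 0.00. No member had opposite differences that both passed 1.5-fold.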

How the results depend on the processing

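No paired analysis was possible because each group had 1 array and so shared no second replicate number with another, and no array could be left out of a comparison. A fit that pools the DbSCL difference over Steel factor and Epo, with cytokine as a term, would leave 1 residual degree of freedom and was not run. Of the counts of members past 1.5-fold, that for Steel factor minus GM-CSF (4) became 1 with quantile normalization, 0 with loess and 2 with the mean of probe sets. It became 0 with the second-brightest probe set (13 genes) and 0 without _x_at and _s_at probe sets (13 genes). In each of these last 2 settings only 1 of the 4 genes, GGPS1, had a value. The count for Epo minus GM-CSF (6) became 2, 3, 3 and 2 with quantile, loess, the second-brightest probe set and without _x_at and _s_at. With the second-brightest probe set only 1 of the 6 genes, DHCR7, was kept, and NSDHL (1.08) and SCD (0.69) came in. The median of 0.22 for Epo minus GM-CSF became −0.0067 with quantile normalization. Steel factor minus Epo in vector cells (1) became 2 with the second-brightest probe set, NSDHL (−0.66) and DHCR7 (−0.65), and 0 without _x_at and _s_at. PDSS1 had no value in either setting. Steel factor minus Epo in DbSCL cells (2) became 1 with the mean and 1 with the second-brightest probe set. The latter was INSIG1 (−0.82), as MSMO1 and HMGCS1 had no value there. DbSCL minus vector under Steel factor (4) became 3 with quantile normalization and 3 with loess, where ACLY fell to −0.48 and −0.51. It became 1 with the mean, 1 with the second-brightest probe set (INSIG1) and 2 without _x_at and _s_at, which leave out FASN and ACLY. DbSCL minus vector under Epo (3) became 1 (SQLE) in that last setting, where PDSS1 and PMVK had no value. It became 2 with quantile normalization (PDSS1 and PMVK) and 2 with the second-brightest probe set (NSDHL and DHCR7). With the second-brightest probe set, SQLE reversed to −0.27 for Epo minus GM-CSF and to 0.13 for DbSCL minus vector under Epo, and under Steel factor FASN reversed to 0.29 and ACLY to 0.46. The cause was not tested. MSMO1 stayed past 1.5-fold on the same side with quantile, loess and median centring, at −1.12, −1.12 and −1.14 for DbSCL minus vector under Steel factor. So did PDSS1 for its 3 differences past 2-fold, with 1.60, 1.66 and 1.90 for Epo minus GM-CSF. The changes of floor and of probe set could alter the values of these 2 genes little or not at all, so those settings are no check on them. Each has 1 probe set, so probe set disagreement could not be seen for them.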

Other observations

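Among the 14 genes of fatty acid elongation, activation and supply on the array, the changes in DbSCL cells ran in both directions. Of 13 compared, 2 were at least 1.5-fold lower than in vector cells under Steel factor, where 3.68% of all genes were. None was higher, where 1.42% were. Under Epo 1 was lower, where 2.78% of all genes were, and 1 was higher, where 0.694% were. ME1, the cytosolic malic enzyme that supplies NADPH for lipid synthesis, had 6.36 and 7.04 in DbSCL cells under Steel factor and Epo, against 7.42, 7.68 and 6.66 in vector cells under Steel factor, Epo and GM-CSF. Its DbSCL differences were −1.05 under Steel factor and −0.64 under Epo, with its other probe sets below the floor. ELOVL6, which elongates saturated fatty acids made by FASN, had 7.95 and 8.54 in DbSCL cells under Steel factor and Epo, against 8.78, 8.55 and 8.40 in vector cells under Steel factor, Epo and GM-CSF. It was low on the DbSCL Steel factor array (−0.83 against vector), as MSMO1 and HMGCS1 were, and its weaker probe set gave −0.11.

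ACACB, which encodes the mitochondrial-membrane acetyl-CoA carboxylase whose product restrains fatty acid oxidation, went the other way. It had 6.18 and 6.45 in DbSCL cells under Steel factor and Epo, against 5.88, 5.69 and 5.96 in vector cells under Steel factor, Epo and GM-CSF. Its DbSCL difference under Epo was 0.76 in the brightest probe set, and 1.42 and 1.55 in 2 others above the floor, so all 3 lay past 1.5-fold on the higher side. Under Steel factor they gave 0.30, 0.30 and 0.37. For Epo minus GM-CSF in vector cells 3 of the 13 (ME1, IDH1 and ACSL1) were at least 1.5-fold higher, beside 13.2% of all genes. For Steel factor minus Epo in DbSCL cells 3 of the 13 (ME1, IDH1 and ELOVL6) were lower, beside 2.80%. IDH1, the cytosolic isocitrate dehydrogenase, gave 1.02 and −0.68 in these comparisons. ACSL1, an acyl-CoA synthetase, gave 0.73 for Epo minus GM-CSF.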
